A study of Mus musculus with 34 samples.

Results

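The comparison described here is that of GFP+ with GFP- mammary epithelial cells (MECs) over both CD29 gates at once, and the genes that moved the same way in each gate. It used all 34 of the 34 arrays of the series, 18 labelled GFP+ and 16 labelled GFP-. Every sample came from MMTVrtTA/H2BGFP double transgenic mice, 4 weeks of age, on a CD1 background backcrossed to FVB and kept on doxycycline, so GFP- cells carried the same transgenes and received the same drug as GFP+ cells. The groups were GFP+ CD24+/CD29lo (9 arrays), GFP- CD24+/CD29lo (10 arrays), GFP+ CD24+/CD29+ (9 arrays) and GFP- CD24+/CD29+ (6 arrays). The MMTV promoter drives rtTA, and the paper found H2BGFP in only some MECs. GFP thus marks cells that make or had made the reporter and not a lineage as such. The paper leaves the basis of this selective labelling open. Sorting had removed CD45+, Ter119+ and CD31+ cells. The sources do not say whether each sample came from separate animals, so p-values measure the spread between samples. In sorted cells, fewer cells of a type and less RNA per cell cannot be told apart.

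The CD24+/CD29lo gate holds luminal cells, among them hormone receptor-positive cells that sense estrogen, progesterone and prolactin, and luminal progenitors. The CD24+/CD29+ gate holds basal and myoepithelial cells and is enriched for mammary stem cells. Hormone-sensing luminal cells pass their signal to neighbours through secreted ligands, of which amphiregulin, an EGF receptor ligand, is the best known in the pubertal gland. A stable histone fusion such as H2BGFP stays in a cell after its promoter has fallen silent and is diluted by cell division.

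The deposited values were bead-averaged probe intensities, background-corrected and quantile-normalised here to log2 levels, on which 1 unit is a factor of 2. Between 26.3% and 46.7% of probes were detected per array (detection p under 0.05), with a median of 38.8% in GFP+ and 37.4% in GFP- samples. Samples 1 to 12 and Samples 13 to 34 formed separate array sets, with medians of 42.6% and 35.6% of probes detected, and the second principal component of all arrays (11.2% of the variance) followed the set with a correlation of 0.937 in size. GFP- CD24+/CD29+ arrays lay only in the second set. GFP, gate and set were fitted together as terms of 1 linear model, which takes the set shift as the same in both gates. The GFP difference in the CD24+/CD29+ gate rests on that assumption, since its GFP- arrays carry no information on the set shift. The pan-luminal markers Epcam, Krt8 and Krt18 and the basal keratins Krt5 and Krt14 were detected on every array of every group. Summed over 20 basal and myoepithelial genes, the level lay between 15.8 and 16.27 in GFP+ and between 15.58 and 16.04 in GFP- CD24+/CD29+ cells, and between 12.15 and 13.94 in GFP+ and between 11.63 and 12.63 in GFP- CD24+/CD29lo cells, so the 2 gates stood apart on their own markers. Replicate 22 of the GFP+ CD24+/CD29lo group had the lowest share of probes detected.

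Of 35870 probes tested, 221 differed between GFP+ and GFP- cells over both gates at an adjusted p under 0.05 (limma, Benjamini-Hochberg), which is 0.616% of the probes. Lower probes prevailed, with 184 lower (0.513%) and 37 higher (0.103%) in GFP+ cells. A positive difference is higher in GFP+ cells throughout. For 203 of the 221 the difference had the same sign in each gate, but it was larger in the CD24+/CD29lo gate for 202. An unadjusted p under 0.05 was reached by 218 of them in the CD24+/CD29lo gate and by 78 in the CD24+/CD29+ gate. Fitted gate by gate, 584 probes (1.63%) differed in the CD24+/CD29lo gate and 39 (0.109%) in the CD24+/CD29+ gate, and for 102 (0.284%) the GFP difference itself differed between the gates. Over all probes the differences in the 2 gates correlated with an r of 0.11 (n = 35870 probes, which share the normalisation and the set term), and their signs matched for 52.9%.

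Probes were called shared where they passed over both gates, had the same sign in each and had an unadjusted p under 0.05 in each. There were 75 of them (0.209% of the probes tested), 58 lower and 17 higher in GFP+ cells. Of these, 63 carried the names of 60 genes, and 49 genes were shared by their brightest probe (0.296% of 16570 genes), 42 lower and 7 higher, the reporter included. In the stricter both-gates test, in which a probe takes the larger of its 2 gate p-values before adjustment, 2 probes passed (0.00558%), those of eGFP and Alcam, while 163 had an unadjusted value under 0.05. Within Samples 13 to 34 all 75 kept their sign in both gates, but 5 passed over both gates, eGFP, Inhba, Alcam and Ptger3 among them. Those arrays are part of the whole comparison and no independent set. With a set shift allowed to differ by gate, 41 probes were shared, 36 of them among the 75. Just inside the rule lay Rab27b, Dusp4 and Tuba1a with p of 0.0492, 0.04848 and 0.04293 in the CD24+/CD29+ gate, and just outside it lay Mfge8, Hnrnpa2b1 and Ly6d with 0.05004, 0.05005 and 0.05264.

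**Figure D1:**
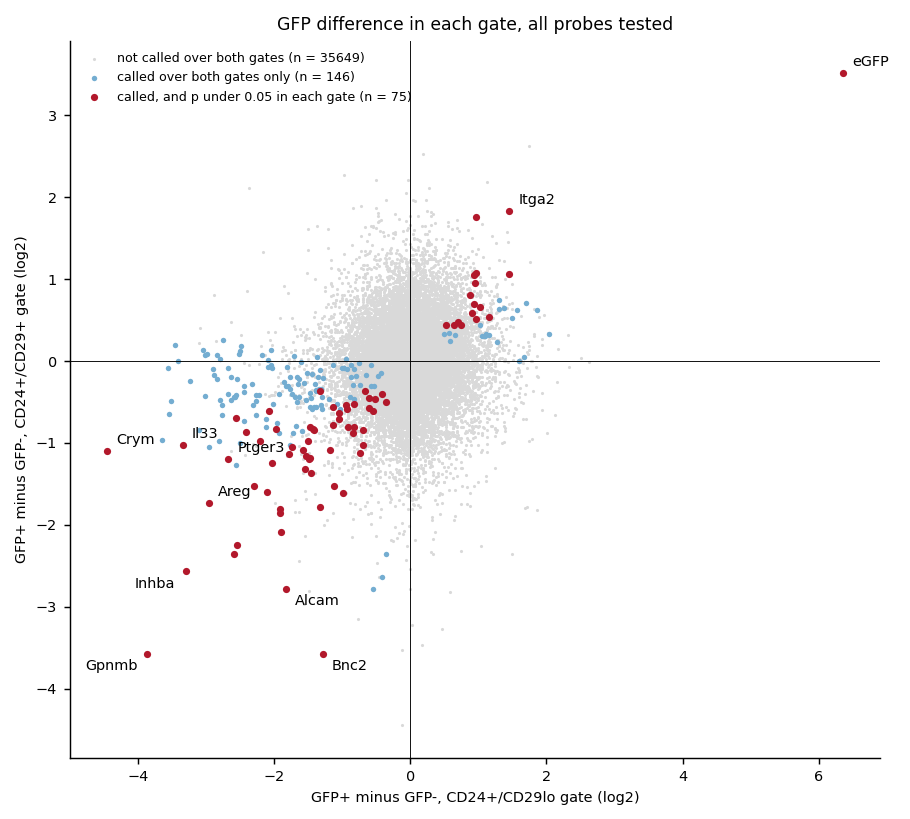
GFP+ minus GFP- difference (log2) of each of 35870 probes in the CD24+/CD29lo gate (x axis) and the CD24+/CD29+ gate (y axis). The 75 shared probes (red) lie in the lower left and upper right by the rule that chose them, 58 and 17 of them, and most of the other called probes (blue) lie along the x axis.

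The reporter separated the groups in both gates. eGFP lay between 10.4 and 11.72 (median 11.13) in GFP+ CD24+/CD29lo cells, against 4.57 to 5.07 (median 4.70) in GFP- CD24+/CD29lo cells. It lay between 7.61 and 10.69 (median 10.21) in GFP+ CD24+/CD29+ cells, against 4.85 to 7.41 (median 6.54) in GFP- CD24+/CD29+ cells. No GFP- array reached the level of a GFP+ array of its gate, but reporter signal was found (detection p under 0.05) in 1 of 10 GFP- CD24+/CD29lo and 4 of 6 GFP- CD24+/CD29+ samples. The difference was 5.20 ± 0.35 over both gates (standard error, adjusted p = 2.42e-11), 6.36 in the CD24+/CD29lo gate and 3.51 in the CD24+/CD29+ gate.

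Alcam, the activin subunit gene Inhba and the prostaglandin E receptor gene Ptger3 passed over both gates also within Samples 13 to 34, and each was lower in GFP+ cells. Alcam (activated leukocyte cell adhesion molecule, CD166) lay between 6.76 and 9.16 (median 8.14) in GFP+ CD24+/CD29lo cells, against 8.65 to 10.65 (median 9.76) in GFP- CD24+/CD29lo cells. Among CD24+/CD29+ samples it lay between 4.64 and 6.19 (median 5.26) in GFP+ cells, detected on 5 of 9 arrays, against 6.67 to 9.72 (median 7.95) in GFP- cells, detected on 6 of 6. The groups overlapped in the CD24+/CD29lo gate and stood apart in the CD24+/CD29+ gate. The difference was -2.21 ± 0.25 over both gates (4.63-fold lower, adjusted p = 6.48e-06), -1.82 ± 0.32 in the CD24+/CD29lo gate and -2.78 ± 0.38 in the CD24+/CD29+ gate, and its adjusted p in the both-gates test was 0.042. That pass was lost without any 1 of 23 single arrays, without the array set term, without the filter on dim probes and within Samples 13 to 34, while the call over both gates was kept in each. Within the second array set the differences were -1.96 and -2.52, and within the first set, which holds the CD24+/CD29lo comparison alone, -1.66. Of 21 genes on the cadherin and adhesion list, Alcam alone was called, against 0.923% of all genes tested.

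Inhba encodes the subunit of activin A, a TGF-beta family ligand. It lay between 4.57 and 7.22 (median 5.19) in GFP+ CD24+/CD29lo cells, against 7.62 to 9.85 (median 8.78) in GFP- CD24+/CD29lo cells, with no overlap. In the CD24+/CD29+ gate it lay between 4.35 and 6.86 (median 5.31) in GFP+ cells, against 5.32 to 9.38 (median 8.70) in GFP- cells, where replicate 33 was the only GFP- array inside the GFP+ range. The difference was -3.00 ± 0.35 over both gates (adjusted p = 6.48e-06), -3.30 and -2.56 in the CD24+/CD29lo and CD24+/CD29+ gates, and -2.98 within Samples 13 to 34 (adjusted p = 0.0218). Inhba was 1 of 3 called genes among 27 of the TGF-beta and BMP list, all 3 shared and all lower, where 0.923% of all genes were called and 0.296% shared. The TGF-beta receptor Tgfbr2 differed by -0.99 (adjusted p = 0.0214) and Id3, an inhibitor of differentiation that BMP signals induce, by -1.47 (adjusted p = 0.000188). Tgfbr2 fell short without replicate 7 of the GFP- CD24+/CD29lo group (adjusted p = 0.0517) and without the array set term. Neither Tgfbr2 nor Id3 passed within Samples 13 to 34 (limma adjusted p = 0.54 and 0.13). Dimmer Tgfbr2 probes, at mean levels between 4.719 and 4.996, differed by -0.06 to 0.07 over both gates. The median of the 27 genes was -0.10, and 13 were lower and 9 higher in both gates, against 26.5% and 26.7% of all genes.

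Ptger3 encodes the EP3 receptor for prostaglandin E2. It lay between 4.58 and 5.88 (median 5.04) in GFP+ CD24+/CD29lo cells, against 6.95 to 8.69 (median 7.63) in GFP- CD24+/CD29lo cells. In the CD24+/CD29+ gate 0 of 9 GFP+ arrays detected it, against 3 of 6 GFP- arrays, and GFP+ cells were at least 1.39-fold lower, a bound set by the lowest detected signal of each array. The groups stood apart in the CD24+/CD29lo gate. In the CD24+/CD29+ gate levels lay between 4.395 and 4.748 in GFP+ and between 4.763 and 6.445 in GFP- samples. These ranges did not overlap, but their edges lay at background, so no separation can be read there. The difference over both gates was -2.07 ± 0.21 (adjusted p = 5.42e-07), and it was -2.65 and -1.04 in the 2 gates within Samples 13 to 34. A second, dimmer probe of Ptger3 also passed over both gates (-0.84, adjusted p = 0.0109), with -1.28 in the CD24+/CD29lo gate and -0.21 in the CD24+/CD29+ gate. Among 12 genes of prostaglandin synthesis, transport and reception, the transporter Slco2a1 was the other gene called. By its brightest probe Slco2a1 was lower in the CD24+/CD29lo gate (-3.02) and not in the CD24+/CD29+ gate (0.07), while a dimmer probe was shared (-1.97 and -0.83), so its probes disagree. The related receptors Ptger2 and Ptger4 had differences of 0.39 and 0.0019 and did not pass.

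**Figure D2:**
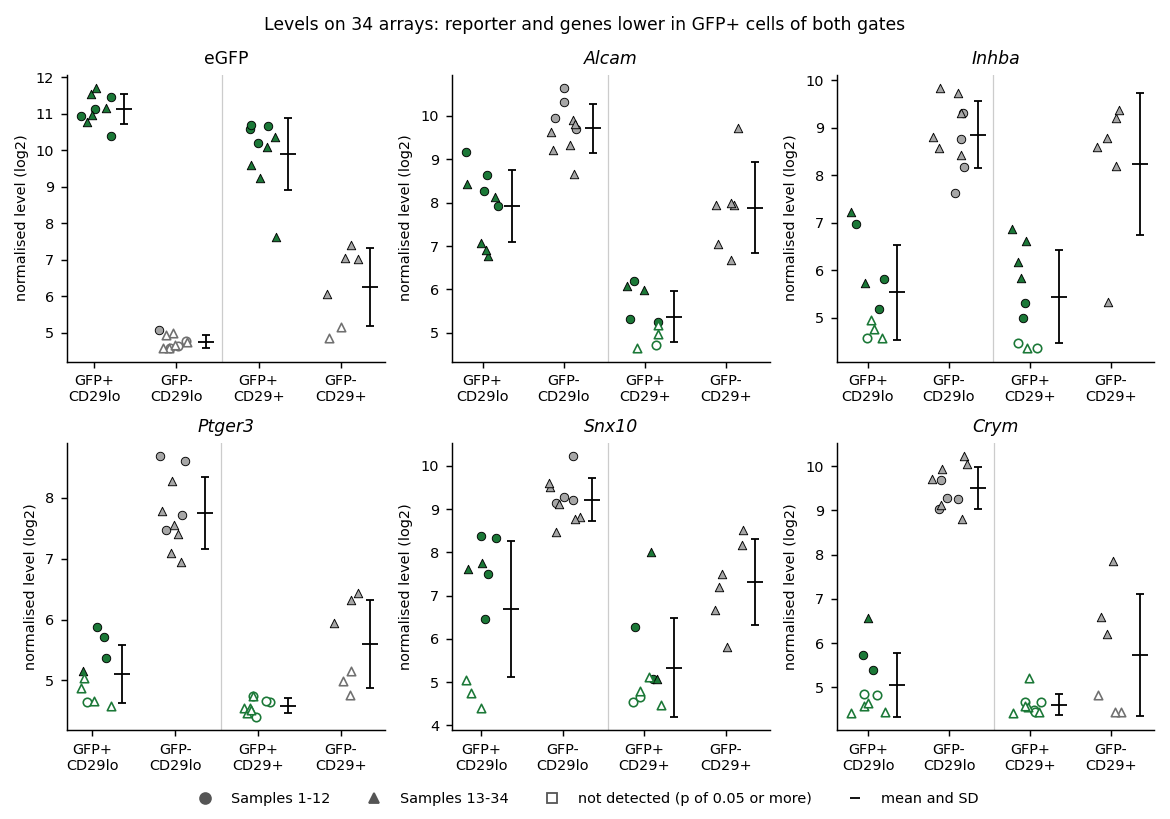
Normalised level (log2) of eGFP, Alcam, Inhba, Ptger3, Snx10 and Crym on each of 34 arrays by group, with the mean and SD beside each group. Circles are Samples 1 to 12 and triangles Samples 13 to 34, and open symbols are arrays on which the probe was not detected. For Ptger3, the 9 GFP+ CD24+/CD29+ arrays are all open symbols.

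The EGF receptor ligands Areg and Epgn fell together in both gates, while other ligands of the family did not pass. Areg, an estrogen-induced ligand of the hormone-sensing cell, lay between 7.29 and 11.46 (median 10.14) in GFP+ CD24+/CD29lo cells, against 11.98 to 13.38 (median 12.95) in GFP- CD24+/CD29lo cells. Among CD24+/CD29+ samples it lay between 4.70 and 8.92 (median 7.20) in GFP+ cells, against 7.70 to 10.39 (median 8.57) in GFP- cells. The groups stood apart in the CD24+/CD29lo gate and overlapped in the CD24+/CD29+ gate. The difference was -2.46 ± 0.39 over both gates (adjusted p = 0.000798), -2.95 and -1.73 in the CD24+/CD29lo and CD24+/CD29+ gates, and -3.33 and -0.99 in them within Samples 13 to 34.

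Epgn (epigen) lay between 4.60 and 6.83 (median 5.52) in GFP+ CD24+/CD29lo cells, against 6.85 to 8.88 (median 7.54) in GFP- CD24+/CD29lo cells, 2 ranges that did not overlap. In the CD24+/CD29+ gate it lay between 4.88 and 7.99 (median 5.99) in GFP+ cells, against 5.98 to 9.51 (median 8.48) in GFP- cells. Its difference was nearly the same size in the 2 gates, -1.91 and -1.85, and -1.89 ± 0.29 over both (adjusted p = 0.000491). A dimmer Epgn probe, with a mean level of 4.74 near the background, did not move (0.09). Neither ligand passed within Samples 13 to 34 (adjusted p = 0.25 for Areg and 0.226 for Epgn). Of 25 genes of the FGF and EGF list 3 were called, the other being the receptor Fgfr2, which was lower in the CD24+/CD29lo gate (-2.04) but had a difference of -0.05 in the CD24+/CD29+ gate. Ereg, Btc, Hbegf, Egf and Tgfa had differences of -0.43, -0.28, 0.53, 0.19 and -0.17, and the receptors Egfr, Erbb2, Erbb3 and Erbb4 lay between -0.23 and 0.40, and none of these 9 passed.

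Areg and Epgn lie near each other on mouse chromosome 5. Their promoters, and that of Alcam as the one endogenous gene past the both-gates test, are printed around the start of the gene (RefSeq, GRCm38.p6), 5′ to 3′ on the strand of the gene, to show which of 4 short motifs they hold. Capitals mark matches on either strand to TGTTCT (the half-site of glucocorticoid, progesterone and androgen receptors), TGANTCA (AP-1), TTTGAA (the cell cycle homology region) and TGACGTCA (the cyclic AMP response element).
Areg, chr5:91139349-91139648, + strand: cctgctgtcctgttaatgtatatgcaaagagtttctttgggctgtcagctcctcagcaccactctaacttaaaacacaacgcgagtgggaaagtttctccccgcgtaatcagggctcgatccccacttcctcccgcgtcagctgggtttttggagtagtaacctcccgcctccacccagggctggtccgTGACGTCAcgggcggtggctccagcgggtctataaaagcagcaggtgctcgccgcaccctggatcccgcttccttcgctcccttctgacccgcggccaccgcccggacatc
Epgn, chr5:91027267-91027566, + strand: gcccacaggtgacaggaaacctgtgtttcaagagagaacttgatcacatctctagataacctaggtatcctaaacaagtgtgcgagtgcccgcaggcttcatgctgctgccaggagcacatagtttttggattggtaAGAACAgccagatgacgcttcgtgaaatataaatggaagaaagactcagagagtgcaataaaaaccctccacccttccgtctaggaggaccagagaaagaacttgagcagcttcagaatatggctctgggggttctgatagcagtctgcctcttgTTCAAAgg
Alcam, chr16:52453032-52453331, - strand: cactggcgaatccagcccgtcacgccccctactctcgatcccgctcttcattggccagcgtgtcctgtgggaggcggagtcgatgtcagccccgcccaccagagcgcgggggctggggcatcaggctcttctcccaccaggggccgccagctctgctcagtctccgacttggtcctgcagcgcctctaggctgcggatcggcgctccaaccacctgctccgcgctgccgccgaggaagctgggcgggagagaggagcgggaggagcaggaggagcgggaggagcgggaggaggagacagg
Areg held TGACGTCA, Epgn held AGAACA and TTCAAA, the reverse complements of TGTTCT and TTTGAA, and Alcam held none of the 4. Of 48 genes with a shared probe that was lower in GFP+ cells, 35 had a promoter in the table. TGTTCT was found in 8 of them (22.9%, against 21.2% of 26742 genes with a promoter), TGANTCA in 3 (8.57%, against 8.97%), TTTGAA in 10 (28.6%, against 20.1%) and TGACGTCA in 2, Areg and Cldn6 (5.71%, against 2.05%). A match is a description of the letters and not of binding.

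Crym, whose product binds thyroid hormone in the cytosol, lay between 4.42 and 6.57 (median 4.83) in GFP+ CD24+/CD29lo cells, against 8.81 to 10.23 (median 9.49) in GFP- CD24+/CD29lo cells. Among CD24+/CD29+ samples 0 of 9 GFP+ and 3 of 6 GFP- ones detected it, and the level in GFP+ cells was at least 1.51-fold lower. The CD24+/CD29lo difference was -4.46 ± 0.33, and since GFP+ CD24+/CD29+ cells lay at background, its size cannot be set against that of the other gate. Il33, an alarmin of the interleukin 1 family, differed by -3.34 ± 0.40 in the CD24+/CD29lo gate and -1.02 ± 0.48 in the CD24+/CD29+ gate, a difference between gates that did not pass (interaction adjusted p = 0.135). There, 2 of 9 GFP+ samples (median 4.77) and 5 of 6 GFP- samples (median 6.12) detected it. Of 10 genes of that family the interleukin 1 receptor Il1r1 was also called (-1.38, adjusted p = 0.0352), but it was not shared and lost the call without 1 of 14 single arrays. Cldn6, a tight junction claudin, differed by -2.56 in the CD24+/CD29lo gate and was at or near background in the CD24+/CD29+ gate (detected in 0 of 9 GFP+ and 2 of 6 GFP- samples). The surface antigen gene Ly6a (Sca-1), counted here among hormone-sensing luminal genes, differed by -1.77 and -1.14 in the 2 gates (adjusted p = 0.0232 over both). The imprinted non-coding RNA H19 differed by -2.30 and -1.53 (adjusted p = 0.00313), with a second H19 probe at -1.48 and -0.80.

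**Figure D3:**
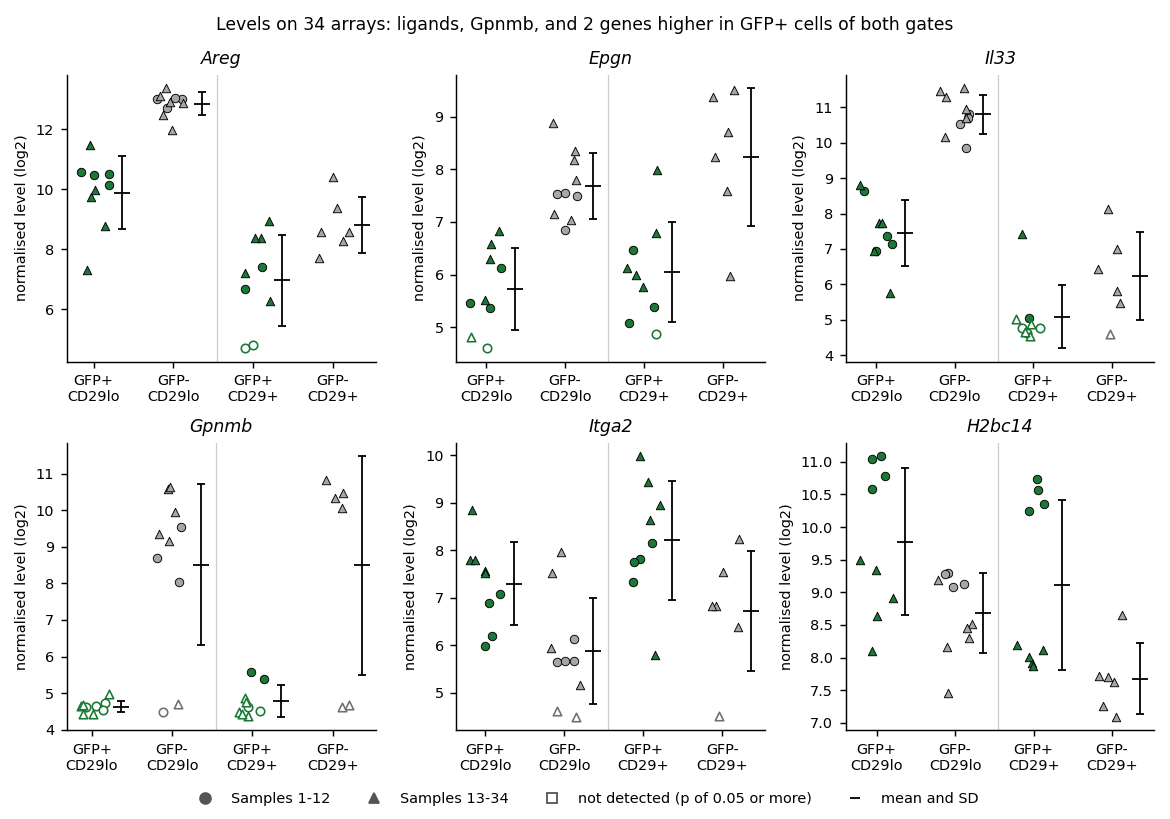
Normalised level (log2) of Areg, Epgn, Il33, Gpnmb, Itga2 and H2bc14 on each of 34 arrays by group, with the mean and SD beside each group. Circles are Samples 1 to 12, triangles Samples 13 to 34 and open symbols arrays with no detection. For H2bc14 the 4 GFP+ circles of each gate (10.24 or higher) stand above the triangles of their group (9.5 or lower).

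Some shared genes are known from other cell types, and several of them were high on only part of the GFP- arrays. Gpnmb, a glycoprotein of macrophages, melanocytes and osteoclasts that some epithelial cells express too, had the largest fall of the shared genes by size. Detection failed in all 9 GFP+ CD24+/CD29lo samples (median 4.65) and succeeded in 8 of 10 GFP- samples of that gate (4.49 to 10.65, median 9.25), so that the level was at least 10.3-fold lower in GFP+ cells. Among CD24+/CD29+ samples, 2 of 9 GFP+ ones (median 4.62) and 4 of 6 GFP- ones (4.62 to 10.83, median 10.19) detected it, a difference of -3.57 ± 0.94. The ranges overlapped in each gate because 2 GFP- arrays of each lay at background. The adjusted p was 0.000801 over both gates and 0.122 within Samples 13 to 34, and 3 dimmer Gpnmb probes, at mean levels between 4.64 and 4.84, differed by -0.22 to -0.35 and did not pass. Of 8 macrophage and myeloid genes tested none was called. Ptprc and Fcgr1 were not detected on any of the 34 arrays, and the summed level of the 8 genes lay between 7.57 and 9.49 in GFP+ and between 7.57 and 8.95 in GFP- CD24+/CD29lo cells, and between 7.69 and 10.43 in GFP+ and between 7.78 and 8.37 in GFP- CD24+/CD29+ cells.

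Fabp4, the fatty acid binding protein of adipocytes and capillary endothelium, differed by -2.11 and -1.60 in the 2 gates (adjusted p = 0.0222 over both). Of 7 adipocyte genes it was the one called. Adipoq passed detection in 2 of 18 GFP+ and 3 of 16 GFP- samples, and Plin1 in 2 of 18 GFP+ and 0 of 16 GFP- samples. The summed adipocyte level in CD24+/CD29+ cells lay between 8.23 and 10.43 on GFP+ and between 8.67 and 12.37 on GFP- arrays, and in CD24+/CD29lo cells between 7.57 and 9.78 on GFP+ and between 8.08 and 10.82 on GFP- arrays. Col6a3, a chain of collagen VI, differed by -1.12 and -1.53 (adjusted p = 0.00313), and it was 1 of 2 called among 12 fibroblast genes, with Col3a1 (-0.55 and -2.77, adjusted p = 0.042). The 12 genes had a median of -0.30, 7 of them lower in both gates, and a summed level between 10.57 and 11.18 in GFP+ and between 10.67 and 11.76 in GFP- CD24+/CD29+ cells, and between 8.52 and 9.65 in GFP+ and between 8.79 and 9.86 in GFP- CD24+/CD29lo cells. Lum, a fibroblast proteoglycan, passed detection in 2 of 18 GFP+ and 1 of 16 GFP- samples. Bnc2, a zinc finger protein of fibroblasts and some epithelia, differed by -1.28 and -3.57 (adjusted p = 0.0241). A dimmer Bnc2 probe had -0.61 and did not pass, and the call was lost with array set by gate as a further term. Of the samples, 2 of 18 GFP+ and 12 of 16 GFP- ones detected Bnc2. The part of stromal cells in these differences was not tested.

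P2ry6, a receptor for UDP, and Snx10, a sorting nexin of endosomes, were also among the largest falls. Snx10 lay between 4.41 and 8.38 (median 7.49) in GFP+ CD24+/CD29lo cells, against 8.48 to 10.23 (median 9.18) in GFP- CD24+/CD29lo cells, and between 4.48 and 8.01 (median 5.08) in GFP+ CD24+/CD29+ cells, against 5.82 to 8.52 (median 7.35) in GFP- CD24+/CD29+ cells. Its difference was -2.43 ± 0.37 over both gates (adjusted p = 0.000532), while a dimmer probe had -0.64 and did not pass. P2ry6 differed by -2.59 ± 0.77 and -2.35 ± 0.92 in the 2 gates (adjusted p = 0.0329), lost the call without any 1 of 11 single arrays, and differed by -0.33 in the CD24+/CD29lo gate of the first array set, against -4.26 in that of the second.

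**Figure D4:**
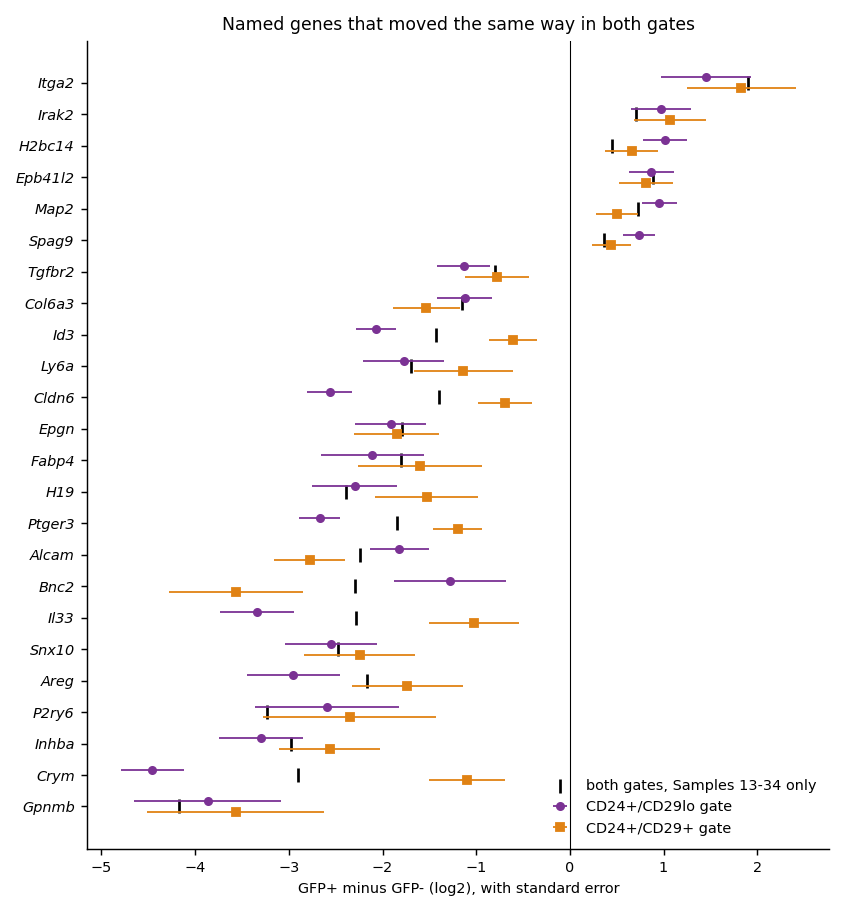
GFP+ minus GFP- difference (log2) with its standard error for the 24 named shared genes other than the reporter, in the CD24+/CD29lo gate (circles) and the CD24+/CD29+ gate (squares), with the difference over both gates within Samples 13 to 34 as a bar. Crym, Il33, Cldn6, Id3 and Ptger3 show the smaller fall in the CD24+/CD29+ gate, where Crym, Cldn6 and Ptger3 were undetected on all 9 GFP+ arrays, while Alcam and Bnc2 are among the genes with the larger fall there.

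Fewer genes were higher in GFP+ cells of both gates, and their differences were smaller. Itga2, the integrin alpha subunit that binds collagen and is a surface marker of luminal progenitors, lay between 5.98 and 8.84 (median 7.52) in GFP+ CD24+/CD29lo cells, against 4.49 to 7.97 (median 5.67) in GFP- CD24+/CD29lo cells. Among CD24+/CD29+ samples it lay between 5.79 and 9.99 (median 8.15) in GFP+ cells, against 4.50 to 8.24 (median 6.83) in GFP- cells. The groups overlapped in both gates. The difference was 1.61 ± 0.37 over both gates (adjusted p = 0.0288) and 1.45 and 1.83 in the 2 gates. Within Samples 13 to 34 it was 1.90 and did not pass (adjusted p = 0.419). The call was lost without replicate 23 of the GFP+ CD24+/CD29lo group (adjusted p = 0.0669), and also without the array set term. Among 20 integrin and laminin genes the laminin chain Lamb1 was also called (1.27 and 0.23 in the 2 gates), and Itgb1, which encodes the CD29 of the gates, had a difference of 0.20 and did not pass.

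H2bc14, a gene for histone H2B, the protein to which GFP is fused in the reporter, was higher by 1.02 and 0.66 in the 2 gates (adjusted p = 0.0131). It lay between 8.10 and 11.09 (median 9.5) in GFP+ CD24+/CD29lo cells, against 7.45 to 9.29 (median 8.80) in GFP- CD24+/CD29lo cells. The difference in the CD24+/CD29lo gate was 1.68 within the first array set and 0.55 within the second. Among CD24+/CD29+ samples it lay between 7.87 and 10.74 (median 8.19) in GFP+ cells, against 7.09 to 8.65 (median 7.67) in GFP- cells, and the difference within the second set, which holds all GFP- arrays of that gate, was 0.34. Over both gates it was 0.45 within the second set (adjusted p = 0.799), and the call was also lost without the array set term. None of the other 11 H2B genes tested was called, 4 of the 12 were higher and 4 lower in both gates, and the median of the 12 was -0.09. Whether the H2bc14 probe also reads the transgene transcript was not tested.

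The other genes higher in both gates by their brightest probe were Irak2, a kinase of interleukin 1 receptor signalling (1.01, adjusted p = 0.0404), Epb41l2, a membrane skeleton protein (0.85, adjusted p = 0.0188), Map2, a microtubule-associated protein (0.77, adjusted p = 0.00656), and Spag9, a scaffold of JNK signalling (0.62, adjusted p = 0.0188). None of these 4 passed within Samples 13 to 34, no other probe of any of the 4 passed, and Irak2 lost the call without any 1 of 23 single arrays. Irak2, Map2 and Spag9 also lost the call without the array set term. The dimmer Spag9 probes differed in sign and lay between -0.25 and 0.36 over both gates. Of the CD24+/CD29+ samples, 5 of 9 GFP+ and 1 of 6 GFP- ones detected Irak2, so its difference there was read near background. For 11 genes a dimmer probe was shared while the brightest was not. Among them, chosen after their values were seen, were Ptbp1, a splicing repressor (2 shared probes at 0.95 and 0.99, while the 3 brightest lay between -0.03 and 0.16), and Gtf3c2, a subunit of transcription factor TFIIIC (1.29, while the 2 brighter probes had 0.30 and 0.50).

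Hormone-sensing luminal genes were the cell type list with the most calls. Of 14 genes 6 were called, all lower in GFP+ cells, against 0.923% of all genes: Areg, Ly6a, the estrogen receptor Esr1, the prolactin receptor Prlr, the pioneer factor Foxa1 and the hormone-induced Stc2. Areg and Ly6a were shared, and 10 of the 14 were lower and 1 higher in both gates. The median of the 14 was -0.89 over both gates, against -0.000629 for all genes, and it was smaller in size without background correction (-0.38) and with the authors' processed values (-0.35). By gate it was -1.34 in CD24+/CD29lo and -0.24 in CD24+/CD29+ cells. Esr1 lay between 4.78 and 8.37 (median 7.15) in GFP+ CD24+/CD29lo cells, against 8.79 to 10.48 (median 9.51) in GFP- CD24+/CD29lo cells. In the CD24+/CD29+ gate it lay between 4.46 and 7.24 (median 4.91) in GFP+ cells, against 4.73 to 7.81 (median 5.51) in GFP- cells, a difference of -0.98 with an unadjusted p of 0.0678 in the limma fit. Esr1 was detected there on 4 of 9 GFP+ and 3 of 6 GFP- arrays, so this difference was read near background. Prlr differed by -2.68 in the CD24+/CD29lo gate and by -0.09 in the CD24+/CD29+ gate, where 2 of 9 GFP+ and 1 of 6 GFP- arrays detected it. Prlr lost the call over both gates without replicate 34 of the GFP+ CD24+/CD29lo group (adjusted p = 0.051). The summed level of the 14 genes in CD24+/CD29+ cells lay between 9.2 and 10.13 on GFP+ arrays and between 9.82 and 11.9 on GFP- arrays, and that of 13 pan-luminal genes there between 11.73 and 12.86 on GFP+ and between 12.29 and 13.1 on GFP- arrays. In CD24+/CD29lo cells the 14 genes lay between 10.81 and 12.76 on GFP+ and between 13.55 and 14.75 on GFP- arrays. In the CD24+/CD29+ gate Areg, Ly6a, Crym, Ptger3 and Il33 were lower in GFP+ cells too. Areg and Ly6a belong to the 14 genes, so their fall is part of that sum. Cldn6 was at or near background there. The part of luminal cells within that gate in these differences was not tested.

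Of 11 mammary development genes listed here from the study, 9 were called over both gates, against 0.923% of all genes, but Areg alone was shared. The study singled out such genes from these same samples, which is no independent evidence. Fgfr2, Robo1, Cav1 and Prlr differed in the CD24+/CD29lo gate by -2.04, -3.05, -2.09 and -2.68 and in the CD24+/CD29+ gate by -0.05, 0.14, 0.01 and -0.09, and for each of the 4 the interaction of GFP and gate passed (adjusted p = 0.00157, 0.000126, 0.0448 and 0.0302), though Prlr lay near background in the CD24+/CD29+ gate. For Robo1 the 3 dimmer probes lay between -0.23 and 0.20 over both gates and did not pass. Muc1, a luminal mucin, was higher in the CD24+/CD29lo gate (1.67) and had a difference of 0.05 in the other. Cdo1, a cysteine dioxygenase, differed by -2.56 and -1.26 and missed the rule with an unadjusted p of 0.056 in the limma fit of the CD24+/CD29+ gate. Cav1, Muc1 and Il1r1 lost the call over both gates without any 1 of 21, 21 and 14 single arrays. Of the genes of 15 antibody targets 6 were called by RNA level, 4 of them shared: Areg, Ly6a and Alcam, which were lower, and Itga2, which was higher. Of all genes, 0.923% were called and 0.296% shared. The sialomucin Cd164, 1 of the other 2, differed by -1.40 in the CD24+/CD29lo gate and by -0.28 in the CD24+/CD29+ gate. Protein was not measured on these arrays. By antibody staining, the paper found none of its markers fit to isolate GFP+ CD24+/CD29lo cells. It took Areg and Alcam from its array results, and Ly6a and Itga2 as potential lineage markers already described.

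Of 20 basal and myoepithelial genes 1 was called, the smooth muscle myosin Myh11 (1.70 and 0.71, adjusted p = 0.0385), and it lost the call without any 1 of 16 single arrays. Differences were positive in both gates for 14 and negative in both for 1 of the 20, with medians of 0.45 and 0.16. Luminal progenitor genes had a median of 0.67 in the CD24+/CD29lo gate, where 12 of 12 differences were positive, and -0.67 in the CD24+/CD29+ gate, where 10 were negative, though 1 passed in the first gate and 0 in the second, and the list was not tested between gates. Over both gates 2 of 12 were called, Itga2 and Mfge8, a milk fat globule protein (0.43, adjusted p = 0.0405). Milk and alveolar genes likewise had medians of 0.95 and -0.54. Of these 13 genes, 3 passed in the CD24+/CD29lo gate, 0 in the CD24+/CD29+ gate and 0 over both gates. Of the matrix list, the matricellular Thbs1 was higher (2.04 and 0.33, lost without any 1 of 9 single arrays) and Sparcl1 lower (-0.41 and -2.64, lost without any 1 of 21), and neither was shared. The Notch ligand Jag1 differed by -2.90 in the CD24+/CD29lo gate and by -0.10 in the CD24+/CD29+ gate.

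Lists of general cell functions held few calls. No gene of the cell cycle (20 tested), DNA replication (24), immediate early (23), ribosomal protein (22), NF-kappaB (17), glucocorticoid response (17), interferon response (23), proteasome (25), splicing factor (23) or heat shock (12) lists passed over both gates in limma. Their medians lay between -0.36 and 0.16. Some genes of replication and division were shared even so, picked here after their values were seen. Timeless (-1.375 over both gates) and Ect2 (-0.81) were shared and lower by their brightest probe. Of their dimmer probes, 1 of Timeless was shared too (-1.51) and the rest did not pass. For Kif15 (-1.37) and Cep55 (-1.45) a dimmer probe was shared, while their brightest probes (-0.62 and -0.33) did not pass. None of these probes passed within the second array set. Cell cycle genes had medians of -0.67 in the CD24+/CD29lo gate and -0.03 in the CD24+/CD29+ gate, with differences negative in both gates for 9 of 20 and positive in both for 1, among them Mki67 (-1.51 and -0.20, adjusted p = 0.103 over both gates). Differences were positive in both gates for 12 and negative in both for 0 of 23 immediate early genes (median 0.09), and for 14 and 3 of 22 ribosomal protein genes, against 26.7% and 26.5% of all genes. Nfe2l2, the oxidative stress regulator, was called (1.15 and 0.32 in the 2 gates, adjusted p = 0.0105) and the calcium-binding S100a14 and S100a6 as well (-1.41 and -0.84 over both gates), none of them shared, and S100a6 lost the call without replicate 34 of the GFP+ CD24+/CD29lo group (adjusted p = 0.0582). A dimmer Nfe2l2 probe, at a mean level of 7.635, differed by -0.04 over both gates and did not pass, so the probes of Nfe2l2 disagree.

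**Figure D5:**
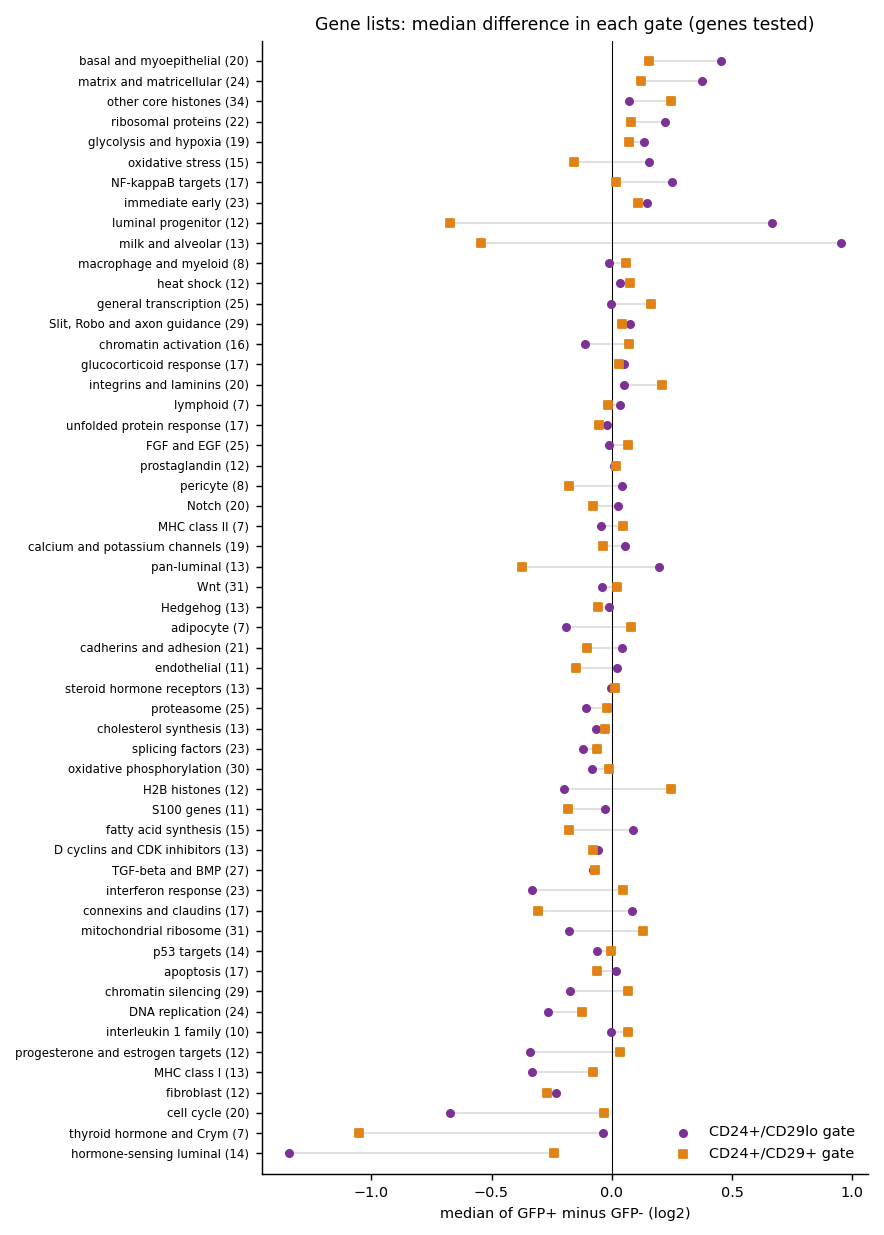
Median GFP+ minus GFP- difference (log2) of each gene list with at least 7 tested genes in the CD24+/CD29lo gate (circles) and the CD24+/CD29+ gate (squares), with the number of genes in brackets. Among the cell type lists, the hormone-sensing luminal list has the lowest median over both gates, at -1.34 and -0.24 in the 2 gates, and the luminal progenitor and milk lists lie on opposite sides of 0.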

How the data were processed

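Bead intensities of 34 Illumina mouse arrays were used. The deposited intensity values are the authors' probe signals on a linear scale, not normalised, and beside each the deposited fraction is 1 minus its detection p. A second table deposited by the authors holds log2 values after processing, for which the methods state quantile normalisation and an empirical Bayes correction for collection date. R 2.14.1 is named in the submitters' processing notes. RNA had been amplified with a NuGEN system.

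Signals were corrected, quantile-normalised and log2-transformed with neqc (offset 16) of limma 3.58.1 in R 4.3.3. Probes were kept where 80% of the arrays of at least 1 group exceeded the 20th percentile of their array (35870 of 45281). The main fit had GFP, gate and array set as terms. The gate differences came from a fit of 4 group means and set. Moderated two-sided limma tests were adjusted by Benjamini-Hochberg across these 35870 probes, with 0.05 as the threshold. Scripts were tested on simulated data. A fold against a group with no detected array is a lower bound. Gene symbols came from the platform annotation, updated through RefSeq: 34885 probes had 1 symbol, 18 several and 10378 none, of which 44 were named from the study's supplement, whose fold and p columns were not used. Each gene was read at its brightest probe by mean level.

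The reporter, up to 12 shared genes of largest size in each direction, those past the both-gates test, up to 3 shared genes per list (or 2 called), and called genes the study names were described. A shared gene is not reported here. The members and the 60 gene lists were chosen with earlier results of these data known. Alternatives changed background correction, values, set term, arrays, filter, weights and the test. Arrays limit precision by their number.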

Additional observations from a re-analysis of the deposited data

Results flagged for a closer look

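For 10 of the 41 named genes the interaction of GFP and gate passed (limma, adjusted p under 0.05), given here as the CD24+/CD29lo difference minus the CD24+/CD29+ difference on the log2 scale. It was 2.85 for eGFP, -3.36 for Crym, -1.47 for Ptger3, -2.58 for Prlr, -2.8 for Jag1, -1.46 for Id3, -3.18 for Robo1, -1.87 for Cldn6, -1.99 for Fgfr2 and -2.11 for Cav1. In the CD24+/CD29+ gate Crym, Ptger3 and Cldn6 were detected on 0 of 9 GFP+ arrays and Prlr on 2 of 9 GFP+ and 1 of 6 GFP- arrays, so these 4 values rest on levels at background and give no size of the difference between gates. Of the 10, eGFP, Crym, Ptger3, Id3 and Cldn6 were shared.

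In 164 groups of arrays tested by gene, 25 held an array farther from the others than Dixon's 95% critical value allows, which is 15.2%, where chance gives about 1 in 20. In GFP+ CD24+/CD29lo cells, Bnc2 at 6.37 on replicate 34, H19 at 5.69 on replicate 23 and Fabp4 at 7.44 on replicate 34 were above the other arrays of the group. In GFP+ CD24+/CD29lo cells, Ly6a at 5.7 on replicate 22, Cd164 at 9.84 on replicate 22 and Cdo1 at 4.38 on replicate 22 were below the other arrays of the group. In GFP- CD24+/CD29lo cells, Cdo1 at 11.47 on replicate 14 was above the other arrays of the group. In GFP- CD24+/CD29lo cells, Cldn6 at 5.59 on replicate 27 was below the other arrays of the group. In GFP+ CD24+/CD29+ cells, Crym at 5.21 on replicate 32, P2ry6 at 8.27 on replicate 17, Il33 at 7.41 on replicate 15, Bnc2 at 6.77 on replicate 17, Esr1 at 7.24 on replicate 11, Prlr at 6.54 on replicate 28 and Sparcl1 at 7.23 on replicate 3 were above the other arrays of the group. In GFP+ CD24+/CD29+ cells, eGFP at 7.61 on replicate 15 and Id3 at 4.52 on replicate 32 were below the other arrays of the group. In GFP- CD24+/CD29+ cells, Irak2 at 6.12 on replicate 25, S100a14 at 9.77 on replicate 30 and Cd164 at 11.72 on replicate 25 were above the other arrays of the group. In GFP- CD24+/CD29+ cells, Epb41l2 at 6.37 on replicate 13, Inhba at 5.32 on replicate 33, Bnc2 at 4.48 on replicate 33, Robo1 at 7.8 on replicate 25 and Thbs1 at 7.65 on replicate 13 were below the other arrays of the group.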

How the results depend on the processing

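The largest dependence was on the arrays used. Within Samples 13 to 34 alone, 5 probes passed over both gates and 5 were shared, 0 passed the both-gates test in limma, 198 passed in the CD24+/CD29lo gate, 9 in the CD24+/CD29+ gate and 30 in the interaction, and fewer arrays entered. Array weights gave 1000 probes over both gates (433 of them higher), 144 shared, of which 55 were among the main 75, and 1475 in the CD24+/CD29lo gate, and the cause was not tested. With set by gate as a further term 41 were shared, and 36 of these were among the 75. Without a filter on dim probes 1 probe (eGFP) passed the both-gates test. In the CD24+/CD29+ gate 23 passed without background correction, and 4 by the methods' t-test (2521 before adjustment). With the authors' processed values 315 passed over both gates, 83 of them higher, and 110 were shared.

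Leaving out single arrays gave 159 to 272 probes over both gates, 56 to 92 shared, 1 to 4 past the both-gates test (1 in 22 of 34 cases, eGFP, with Alcam lost), 454 to 623 in the CD24+/CD29lo gate, 25 to 79 in the CD24+/CD29+ gate and 79 to 111 in the interaction. For the CD24+/CD29+ gate the count was 25 without GFP+ replicate 15, 63 without GFP- replicate 13, 61 without GFP- replicate 25 and 79 without GFP- replicate 33. All 41 named genes kept the sign of their difference over both gates under every alternative run, and 29 kept their call under every omission of 1 array. They were named from these same arrays, which the runs reuse, so a kept sign is no independent evidence. It also does not speak to the sign in each gate. Without the array set term 33 of the 41 kept their call, and within Samples 13 to 34, 4 did. The hormone-sensing luminal median, -0.89 over both gates, was -0.38 without background correction and -0.35 with the authors' values, and the cause was not tested. No paired analysis was possible because replicate numbers are unique to each sample.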
